A study of Mus musculus with 16 samples.

Results

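The genes described are 10 microglial transcripts known to rise around amyloid plaques: Clec7a, Cst7, Itgax, Cd9, Lpl, Spp1, Gpnmb, Axl, Csf1 and Lgals3. They were taken by name from the genes that define disease-associated microglia, with earlier results of these data known, and are 10 of the 55385 genes in the count table. All 10 were among the 17019 genes with enough reads to be tested. Itgax and Cst7 passed that filter only because of their reads in the groups with 5xFAD. A difference in Itgax is thus implied by its being tested, and one in Cst7 is favoured by it. The calls of both for 5xFAD support nothing further. Their transcripts were measured by sequencing of polyadenylated RNA from the cortex of 16 mice at an age of 5 months, 4 per genotype, each mouse giving 1 library. Wild-type C57BL/6J, Dp16 and 5xFAD mice were 2 males and 2 females each, whereas the 4 mice that carried both alterations (5xFAD-Dp16) were all males, so that sex and genotype are partly confounded in that group. Dp16 mice carry a duplication of the part of mouse chromosome 16 that matches much of human chromosome 21, and serve as a model of Down syndrome. 5xFAD mice express mutant human amyloid precursor protein and presenilin genes in neurons from Thy1 promoter sequences and deposit amyloid early. The members lie on chromosomes 2, 3, 5, 6, 7, 8 and 14, so none is in the duplicated segment.

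Microglia are the resident macrophages of the brain. Next to amyloid plaques they reduce their homeostatic genes and take up a phagocytic, lipid-handling state that depends on the receptor Trem2 and its adaptor Tyrobp. Clec7a, Cst7 and Itgax are nearly silent in resting microglia, whereas Cd9, Lpl, Spp1, Axl and Csf1 are also expressed by other brain cells. In bulk cortex a higher transcript level can come from more cells or from more RNA per cell, and the 2 cannot be told apart.

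The promoters of the 3 members that changed most, and of Gpnmb, are shown because they hold the motifs searched here. The sequences are from RefSeq (GRCm38.p6), each with 250 bases before and 50 bases after a transcription start, on the strand of the gene. Capitals mark matches to GAGGAA, the core recognised by the myeloid factor PU.1, or to TGANTCA, the AP-1 element. The windows are chr6:129472730-129473029 (minus strand) for Clec7a, chr2:150570165-150570464 (plus) for Cst7, chr7:128129300-128129599 (plus) for Itgax and chr6:49036268-49036567 (plus) for Gpnmb.
Clec7a: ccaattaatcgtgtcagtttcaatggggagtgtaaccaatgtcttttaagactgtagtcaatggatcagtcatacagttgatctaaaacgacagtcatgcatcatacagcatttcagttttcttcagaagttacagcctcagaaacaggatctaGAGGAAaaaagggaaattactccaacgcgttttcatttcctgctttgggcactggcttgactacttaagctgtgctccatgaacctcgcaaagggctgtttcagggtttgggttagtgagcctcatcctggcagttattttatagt
Cst7: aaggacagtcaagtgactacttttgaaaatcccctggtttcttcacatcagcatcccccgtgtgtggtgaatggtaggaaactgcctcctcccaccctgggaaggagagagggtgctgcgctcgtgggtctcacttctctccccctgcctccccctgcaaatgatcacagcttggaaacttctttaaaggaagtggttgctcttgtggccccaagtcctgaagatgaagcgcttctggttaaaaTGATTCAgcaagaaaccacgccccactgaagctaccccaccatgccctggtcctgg
Itgax: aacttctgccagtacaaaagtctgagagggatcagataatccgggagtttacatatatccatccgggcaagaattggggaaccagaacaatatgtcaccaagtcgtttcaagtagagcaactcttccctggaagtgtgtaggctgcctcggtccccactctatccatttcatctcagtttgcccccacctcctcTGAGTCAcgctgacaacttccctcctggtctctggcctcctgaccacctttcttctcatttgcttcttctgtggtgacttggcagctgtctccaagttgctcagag
Gpnmb: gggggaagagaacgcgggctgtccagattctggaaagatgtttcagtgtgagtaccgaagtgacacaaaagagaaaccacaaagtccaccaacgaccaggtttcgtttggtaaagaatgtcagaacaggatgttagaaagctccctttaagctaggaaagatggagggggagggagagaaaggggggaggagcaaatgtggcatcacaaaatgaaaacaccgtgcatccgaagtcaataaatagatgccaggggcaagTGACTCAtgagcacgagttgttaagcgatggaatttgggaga

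RefSeq windows were found for 9 of the 10 members, 11 windows in all, and Lpl was not among them. GAGGAA, searched on both strands, was present for Clec7a, Spp1 and Axl, and in 28.3% of 32851 mouse promoters of the same length. TGANTCA was present for Cst7, Itgax and Gpnmb, and in 7.81% of all promoters. In Cst7 the match starts 6 bases before the transcription start and in Itgax 56 bases before it. The E-box CACGTG, bound by the Mitf and Tfe family, was in 0 member windows and in 7.15% of all promoters. A match is a string of letters and not a shown binding site.

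Libraries held 12483286 to 20385010 counted reads, and the sex-linked genes matched the labelled sex in 16 of 16. Thy1 stood at a mean of 1640.0 ± 200.2 CPM in the 5xFAD animals and 1647 ± 138 with both alterations, while wild-type had 886 ± 41.5 and Dp16 had 863 ± 48.5 (SD, n = 4; CPM is the read count of a gene scaled to the library total, corrected by TMM factors). Thy1 was measured as a check of the 5xFAD label, and how much of it came from transgene sequence was not tested. Wild-type replicate 2 and 5xFAD replicate 3 had the lowest median correlations with the other libraries, 0.967 and 0.956 against 0.974 to 0.984. The 15 microglia and myeloid core markers were all detected in each group, and their summed level ran from 415 to 479 CPM in wild-type, 453 to 561 in Dp16, 585 to 954 in 5xFAD and 507 to 551 in 5xFAD-Dp16.

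**Figure D1:**
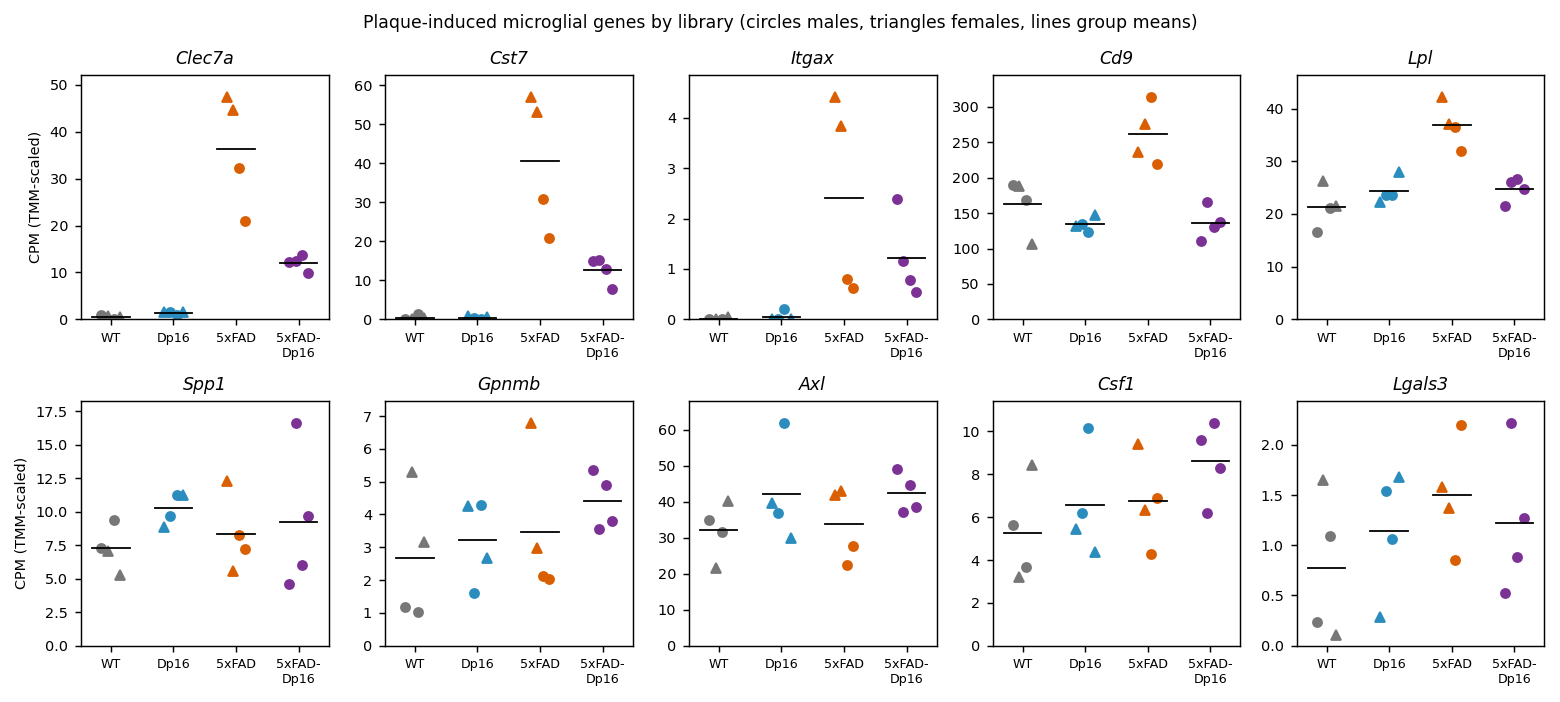
Level of each member (CPM, linear axes from 0) in the 16 libraries by genotype, with males as circles, females as triangles and group means as lines. Clec7a, Cst7 and Itgax separate the libraries with 5xFAD from those without it, and Cd9 and Lpl are highest in the 5xFAD group, whereas the other 5 members overlap between genotypes.

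The first comparison is between 5xFAD and wild-type mice, both with the normal chromosome 16. In 5xFAD mice 4 of the 10 members rose, namely Clec7a, Cst7, Itgax and Lpl, and none fell. Calls were made at an adjusted p of 0.05 (Benjamini-Hochberg over every tested gene) from edgeR's quasi-likelihood test, a level that 0.159% of tested genes passed as higher. All 10 members had a fitted log2 fold change above 0, with a median of 0.74, against a median of 0.02 and 52.1% above 0 over all tested genes. In 5 members, the 4 above and Cd9, every 5xFAD library was above every wild-type library, which held for 2.8% of all tested genes. Both counts, the number above 0 and the median all include Cst7 and Itgax, which were tested only because of their levels with 5xFAD. Only the other members can therefore be set against these shares. Among them Clec7a and Lpl were called, and Clec7a, Lpl and Cd9 did not overlap. Spp1, Gpnmb, Axl, Csf1 and Lgals3 were not called and overlapped.

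Clec7a encodes dectin-1, a receptor for fungal glucans that signals through Syk (ENSMUSG00000079293.11, chromosome 6, 129461591 to 129472779, minus strand, GRCm38; the count table types it as a polymorphic pseudogene). Its level in wild-type replicates 1 to 4 was 0.952, 0.743, 0.182 and 0.421 CPM, and in 5xFAD replicates 1 to 4 it was 47.4, 44.5, 32.3 and 21.0 CPM. The lowest 5xFAD library thus stood far above the highest wild-type library, and the 2 female 5xFAD mice, replicates 1 and 2, were above the 2 males. The fitted difference was 5.94 on the log2 scale (SE 0.34, 61.6-fold, adjusted p = 7.04e-08).

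Cst7 encodes cystatin F, an inhibitor of lysosomal cysteine proteases (ENSMUSG00000068129.5, chromosome 2, 150570415 to 150578944). It had 0 reads in wild-type replicates 1 and 2, and 22 and 6 reads in replicates 3 and 4. Among 5xFAD mice it reached 57.0, 53.2, 30.8 and 21.0 CPM, again highest in the females and without overlap with wild-type. The log2 difference was 6.40 (SE 0.64, adjusted p = 0.000136).

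Itgax, the CD11c integrin subunit (ENSMUSG00000030789.9, chromosome 7, 128129547 to 128150657), was rare. Wild-type libraries held 0, 0, 0 and 1 reads, and 5xFAD libraries 67, 67, 12 and 11. The groups did not overlap, but the 2 females, replicates 1 and 2, held most of the 5xFAD reads. Over pooled reads the ratio was 149.7, with an exact 95% interval of 26.5 to 5949 that covers counting error only. The adjusted p of 0.0298 ended above the threshold in 9 of 16 models that each left out 1 library, at up to 0.133: without any one of the 4 wild-type libraries, 5xFAD replicates 1, 2 or 3, or 5xFAD-Dp16 replicates 2 or 3.

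Lpl, lipoprotein lipase, which releases fatty acids from lipoproteins (ENSMUSG00000015568.16, chromosome 8, 68880491 to 68907448), was already expressed in wild-type cortex at 16.6, 26.3, 21.2 and 21.5 CPM. In 5xFAD it stood at 42.2, 37.0, 36.5 and 32.0 CPM, above wild-type in each library. The log2 difference was 0.79 (SE 0.14, 1.73-fold, adjusted p = 0.0192). This call ended without wild-type replicate 1, 3 or 4 or 5xFAD replicate 1, 2 or 3, with adjusted p up to 0.115.

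Cd9, a tetraspanin membrane organiser (ENSMUSG00000030342.8, chromosome 6, 125460266 to 125494791), was the most abundant member. Its level was 189.5, 188, 168 and 107 CPM in wild-type and 236, 276, 314 and 219 CPM in 5xFAD, with no overlap. The log2 difference of 0.68 (SE 0.17) had an adjusted p of 0.182 and did not pass. It passed by DESeq2 (adjusted p = 0.0333), with no filter on low counts (0.00433) and once the length trend was removed (0.0218). Gm28809 and Gm26728 overlap Cd9 on the opposite strand, and the strand setting of the counting is not given in the sources used here, so reads of these genes may not be told apart.

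The secreted and surface members Spp1, Gpnmb, Axl, Csf1 and Lgals3 did not pass in 5xFAD, and their libraries overlapped those of wild-type. Over all 16 libraries Spp1 ran from 4.64 to 16.6 CPM, Gpnmb from 1.03 to 6.79, Axl from 21.6 to 61.8, Csf1 from 3.22 to 10.4 and Lgals3 from 0.105 to 2.22. For Spp1 both the lowest and the highest library were of 5xFAD-Dp16, whereas the lowest library was wild-type for the other 4 genes. Spp1 (osteopontin, chromosome 5, 104435118 to 104441050) differed by 0.20 on the log2 scale (95% interval -0.46 to 0.87), and it overlaps the annotated gene Gm42793 on the same strand, so its counts are uncertain. Gpnmb, a lysosomal glycoprotein (chromosome 6, 49036546 to 49070929), differed by 0.48 (-0.31 to 1.26). Axl, a receptor kinase for apoptotic cells bridged by Gas6 (chromosome 7, 25757273 to 25788705), differed by 0.06 (-0.42 to 0.55).

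Csf1, the growth factor that sustains microglia through Csf1r (chromosome 3, 107741048 to 107760469), differed by 0.35 (-0.31 to 1.01). Lgals3, the galactoside-binding lectin galectin-3 (chromosome 14, 47367751 to 47386160), differed by 1.00 (-0.43 to 2.42), on 44 reads over the wild-type group and 100 over the 5xFAD group. The intervals of Gpnmb, Csf1 and Lgals3 include a log2 difference of 1, which is thus not excluded, whereas those of Spp1 and Axl do not. Among males alone, Spp1 and Axl turned to -0.13 and -0.43.

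Per length, on the authors' RPKM scale, Cd9 led in every group, with 132 ± 29.1 in wild-type and 206 ± 26.2 in 5xFAD (SD, n = 4). In wild-type, Axl (7.50), Lpl (5.18) and Spp1 (4.40) followed with overlapping ranges, and Csf1 (1.11), Gpnmb (0.586), Lgals3 (0.479), Cst7 (0.423) and Clec7a (0.248) formed a lower group in which each neighbour overlapped the next. Itgax was last at 0.00311. In 5xFAD, Cst7 (40.3) and Clec7a (15.5) took the second and the third place with overlapping ranges, followed by Lpl (8.73), Axl (7.73) and Spp1 (4.93). Csf1 (1.40), Lgals3 (0.925), Gpnmb (0.759) and Itgax (0.554) stood at the low end, where each range overlapped its neighbours.

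Other genes of the same microglial state were described by the list alone. Of 31 tested, 7 rose in 5xFAD, 0 fell, and the median log2 difference was 0.41. The chemokine Ccl6 changed by 3.00 (adjusted p = 0.000136), the surface glycopeptide Cd52 by 2.24 (0.000439), the receptor Trem2 by 1.59 (0.000274) and the lysozyme gene Lyz2 by 1.92 (0.000439). Among the 15 microglia and myeloid core markers 5 rose, with a median of 0.73, including Ptprc (CD45) and Fcer1g, the Fc receptor gamma chain. Of the 14 homeostatic microglia genes 1 rose and 0 fell, with a median of 0.22.

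Of 27 tested partners and regulators of the members, 0 passed in 5xFAD, and their median was -0.07. The receptor Csf1r differed by -0.14 (SE 0.40), the Axl ligand Gas6 by -0.23 (SE 0.14), the osteopontin receptor Cd44 by -0.26 (SE 0.39) and the CD11c partner Itgb2 by 0.90 (SE 0.26, adjusted p = 0.227). Among 10 astrocyte markers only the filament gene Gfap passed, while 5 were above 0 and the median was -0.0017. Of the 10 oligodendrocyte, 8 endothelial, 8 perivascular macrophage and 2 tested monocyte and granulocyte genes, 0 passed. The 8 endothelial markers had a median of -0.76, and their part in the result was not tested. The summed perivascular macrophage level was 4.97 to 11.9 CPM in wild-type and 7.08 to 7.91 in 5xFAD, and that of monocytes and granulocytes 0.661 to 5.42 and 1.45 to 5.79 CPM.

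**Figure D2:**
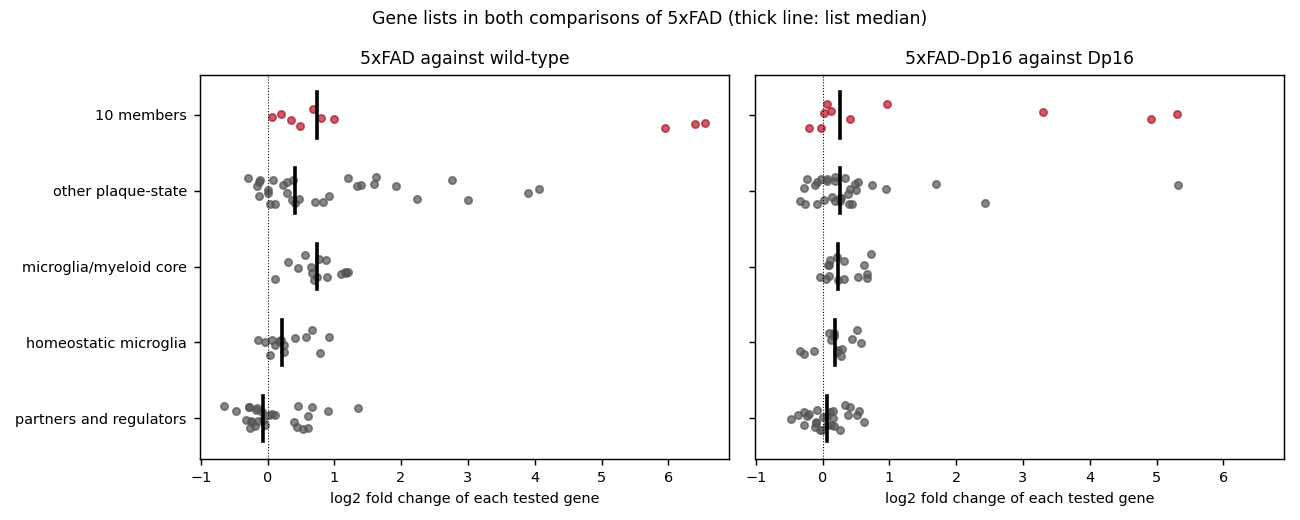
Fitted log2 fold change of each tested gene by list, for 5xFAD against wild-type and for 5xFAD-Dp16 against Dp16, with the list median as a thick line. In the first panel 3 members stand between 5.94 and 6.55 while the rest of the members spread over the range of the core and other plaque-state lists. In the second panel the medians of the members, the other plaque-state list and the core list are 0.26, 0.25 and 0.23.

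The second comparison asks what the transgenes do on the duplicated background. In 5xFAD-Dp16 mice, 2 of the 10 members rose over Dp16, Clec7a and Cst7, where 0.0176% of all tested genes passed as higher. The median of the 10 members was 0.26, 8 were above 0, and Clec7a, Cst7 and Itgax did not overlap between the groups, which 2.82% of all tested genes did in this direction. Cst7 and Itgax, which also enter this median and the count above 0, were tested only because of their levels with 5xFAD. Only the other members can therefore be set against these shares. Among them Clec7a was called and did not overlap. Cd9, Lpl, Spp1, Gpnmb, Axl, Csf1 and Lgals3 were not called and overlapped. Clec7a stood at 1.63, 1.65, 1.01 and 1.48 CPM in Dp16 replicates 1 to 4 and at 12.1, 12.4, 13.7 and 9.91 CPM in 5xFAD-Dp16 replicates 1 to 4. The lowest 5xFAD-Dp16 library was above the highest Dp16 library, and the difference was 3.30 on the log2 scale (SE 0.32, 9.82-fold, adjusted p = 0.00023).

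Cst7 had 11, 5, 2 and 12 reads in Dp16 replicates 1 to 4 and 313, 273, 249 and 143 reads in 5xFAD-Dp16 replicates 1 to 4, and the groups did not overlap. In CPM its mean rose from 0.440 ± 0.305 to 12.7 ± 3.39 (SD, n = 4). The log2 difference was 5.31 (SE 0.69, adjusted p = 0.0037), and the call ended without Dp16 replicate 2 (adjusted p = 0.0653). Itgax had 0, 0, 4 and 0 reads in Dp16 and 50, 21, 15 and 10 in 5xFAD-Dp16, a pooled ratio of 23.3 (exact 95% interval 8.82 to 87.3). The groups did not overlap, but the adjusted p was 0.38. It passed by DESeq2 (adjusted p = 0.0197), with no filter (0.000154) and without Dp16 replicate 3 (0.0204), the library that holds all Dp16 reads.

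Lpl and Cd9, which were higher in 5xFAD than in wild-type in every library, differed by 0.12 (95% interval -0.16 to 0.41) and -0.02 (-0.39 to 0.35) on the duplicated background. Their signs turned once the length trend was removed (-0.01 for Lpl, 0.14 for Cd9). The other 5 members had adjusted p between 0.758 and 0.984 and overlapping libraries. Gpnmb was at 4.26, 1.60, 4.30 and 2.67 CPM in Dp16 and 5.35, 3.55, 4.91 and 3.80 CPM in 5xFAD-Dp16, a log2 difference of 0.96 (SE 0.41, adjusted p = 0.758).

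Spp1 was highest in 5xFAD-Dp16 replicate 2, at 16.6 CPM against 4.64, 6.01 and 9.69 CPM in the other 3 animals of the group. The same library had a summed level of 7 choroid plexus markers of 705 CPM, against 5.34 to 23.1 CPM in the other 3, and its part in the Spp1 level was not tested. Without it, the log2 difference of Spp1 from Dp16 moved from -0.20 to -0.65. None of the 31 other plaque-state genes, the 27 partners and regulators or the 15 core markers passed in this comparison, in which DESeq2 called 25 genes and 901 genes had an unadjusted p below 0.05.

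Averaged over both chromosome 16 backgrounds, 5xFAD raised 3 members, where 0.153% of all tested genes passed as higher. In these 3 every library with 5xFAD was above every library without it, which held for 0.0999% of all tested genes. Of the 3, Cst7 and Itgax were tested only because of their levels with 5xFAD. With these set aside, Clec7a passed and did not overlap, whereas Cd9, Lpl, Spp1, Gpnmb, Axl, Csf1 and Lgals3 did not pass and overlapped. The mean log2 effects were 4.62 for Clec7a (SE 0.23, adjusted p = 7.02e-09), 5.86 for Cst7 (SE 0.45, 3.22e-06) and 5.74 for Itgax (SE 0.78, 0.00226). They passed in all 16 models that left out 1 library. Lpl, at 0.46 (SE 0.10, adjusted p = 0.0907), did not pass here and passed by DESeq2 (0.00333). Among males alone the Itgax call ended, at a mean effect of 5.06 (adjusted p = 0.226).

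In this average 8 of the 31 other plaque-state genes rose and 0 fell. Ccl6 changed by 2.35 (adjusted p = 1.93e-05), Trem2 by 1.06 (0.000557), Cd52 by 1.36 (0.00187) and Lyz2 by 1.15 (0.00242). Of the core markers, Ptprc and Fcer1g passed. Of the 14 homeostatic genes 1 rose and 12 were above 0, with a median of 0.28. Among them the receptor P2ry12 had a mean effect of 0.37 (adjusted p = 0.131) and did not pass.

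**Figure D3:**
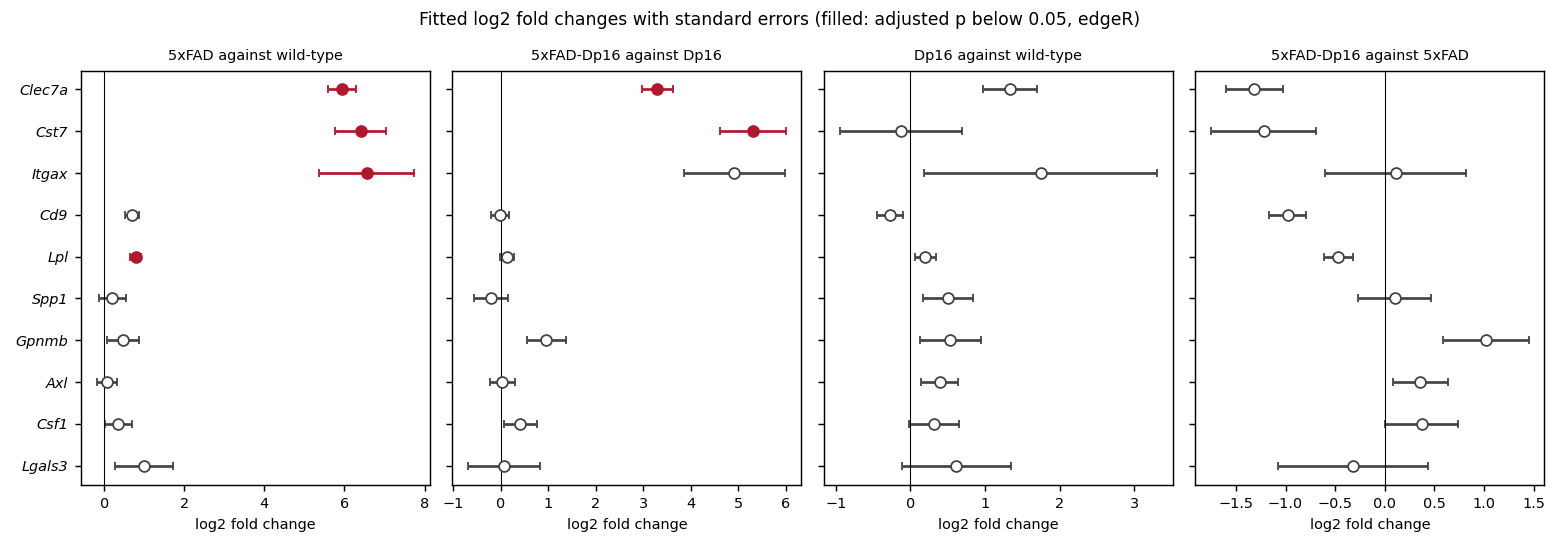
Fitted log2 fold change (point) and standard error (bar) of each member in 4 comparisons, with filled points for an adjusted p below 0.05. Horizontal scales differ between panels. Clec7a and Cst7 are filled in both comparisons of 5xFAD, Itgax and Lpl in the first, and no member is filled in the comparisons of Dp16.

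Dp16 against wild-type asks what the duplication does without amyloid transgenes. No member passed edgeR's test, in which 0.0176% of all tested genes passed in either direction, nor DESeq2's, and 660 genes had an unadjusted p below 0.05. Clec7a was the 1 member whose groups did not overlap, which 1.44% of all tested genes did in this direction. Its 4 Dp16 libraries, at 1.01 to 1.65 CPM, were above the wild-type libraries, at 0.182 to 0.952 CPM. The fitted difference was 1.33 (SE 0.37, 2.52-fold, unadjusted p = 0.00205, adjusted p = 0.625), on 102 reads against 36 over the groups, and it passed only with no filter on low counts (0.0415). In the 16 models that left out 1 library the adjusted p was 0.199 or more.

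Of the other 9 members, 7 had values above 0, up to 1.74 for Itgax, which rests on 4 reads against 1. Cst7 and Cd9 had values of -0.13 and -0.27. Without wild-type replicate 3, which held 22 of the 28 wild-type reads, Cst7 turned to 1.92, and it was also above 0 without Dp16 replicate 3. Itgax turned to -1.94 without Dp16 replicate 3. The median over members was 0.45, against 0.002 over all tested genes, and 0.15 over the core markers.

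The comparison of 5xFAD-Dp16 with 5xFAD asks whether the duplication changes the levels reached with amyloid. No gene passed edgeR's test, 0% of those tested, although 4049 genes had an unadjusted p below 0.05 and DESeq2 called 740. Clec7a, Cst7, Cd9 and Lpl were lower in every 5xFAD-Dp16 library than in every 5xFAD library, which 5.87% of all tested genes were. For Clec7a the 4 double mutants stood at 9.91 to 13.7 CPM and the 5xFAD mice at 21.0 to 47.4 CPM. The log2 difference was -1.32 (SE 0.29, adjusted p = 0.155).

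Cst7 differed by -1.22 (SE 0.53, adjusted p = 0.184), Cd9 by -0.98 (SE 0.19, 0.0811) and Lpl by -0.47 (SE 0.15, 0.155). By DESeq2, Clec7a, Cd9 and Lpl passed as lower, with adjusted p of 0.000811, 0.000841 and 0.0448. With males alone, 2 of 5xFAD and 4 of 5xFAD-Dp16, Clec7a and Cd9 passed as lower (-1.13 and -0.95, adjusted p = 0.0201 and 0.00819) and Axl as higher (0.77, 0.0199), in a model that called 3956 genes. Cd9 also passed without wild-type replicate 2 or 4 (adjusted p = 0.0433 and 0.0328), which enter through the shared spread and sex term.

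Other members did not follow this order. Itgax differed by 0.11 (SE 0.71) and turned to -0.97 with no sex term. Gpnmb was higher by 1.01 (SE 0.43, adjusted p = 0.18), with overlapping libraries. Axl, Csf1 and Spp1 had values of 0.36, 0.37 and 0.10, and Lgals3 one of -0.32, with overlapping libraries. Trem2 stood at 78.0 ± 17.1 CPM in 5xFAD and 37.8 ± 3.48 in 5xFAD-Dp16 (SD, n = 4), a log2 difference of -0.95 (adjusted p = 0.0811). The core markers had a median of -0.46 and the homeostatic genes one of -0.03. Of the markers of other cells, some had higher medians, with 0.62 over 8 endothelial genes, 0.79 over 7 of excitatory neurons, 0.67 over 7 of oligodendrocyte precursors and 2.23 over 6 of choroid plexus, 0 of which passed. The choroid plexus markers were high in 1 library, with a sum of 705 CPM in 5xFAD-Dp16 replicate 2. The rest of that group had 5.34 to 23.1 CPM and 5xFAD had 6.74 to 16.5 CPM. The part of these other cells in the lower members was not tested. Deviations from the mean of all libraries correlated with gene length in each 5xFAD-Dp16 library (Spearman's rho 0.128 to 0.522 across genes, which are not independent), against -0.483 to 0.298 in 5xFAD, and its part in the differences was not tested. Once the length trend was removed, the differences were -0.82 for Cst7, -0.76 for Cd9 and -0.70 for Lpl, and over the 8 alternative settings, this one included, that of Clec7a ran from -1.59 to -1.13.

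The interaction is the 5xFAD effect on the duplicated background minus that on the normal one. No gene passed edgeR's test, 0% of those tested, with 1591 at an unadjusted p below 0.05 and 21 by DESeq2. Clec7a had the largest interaction in size among the members, -2.65 (SE 0.46, 95% interval -3.56 to -1.74, unadjusted p = 2.76e-05, adjusted p = 0.235). It passed by DESeq2 (adjusted p = 4.09e-05), with no filter (2.09e-06) and without wild-type replicate 1 (0.0228), and in the other models its adjusted p was up to 0.906.

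In this value the Clec7a difference of Dp16 from wild-type (1.33) and that of 5xFAD-Dp16 from 5xFAD (-1.32), neither of which passed, have opposite signs. Lpl (-0.67, SE 0.20) and Cd9 (-0.70, SE 0.26) had unadjusted p of 0.00373 and 0.0143 and adjusted p of 0.522. For Cst7 the value was -1.09 with an interval of -3.08 to 0.89, and it turned to 0.77 among males. The median over the 10 members was -0.69, against -0.01 over all tested genes, -0.50 over the core markers and -0.36 over the other plaque-state genes. These comparisons share their 5xFAD and control libraries, so their values for a member are not independent.

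**Figure D4:**
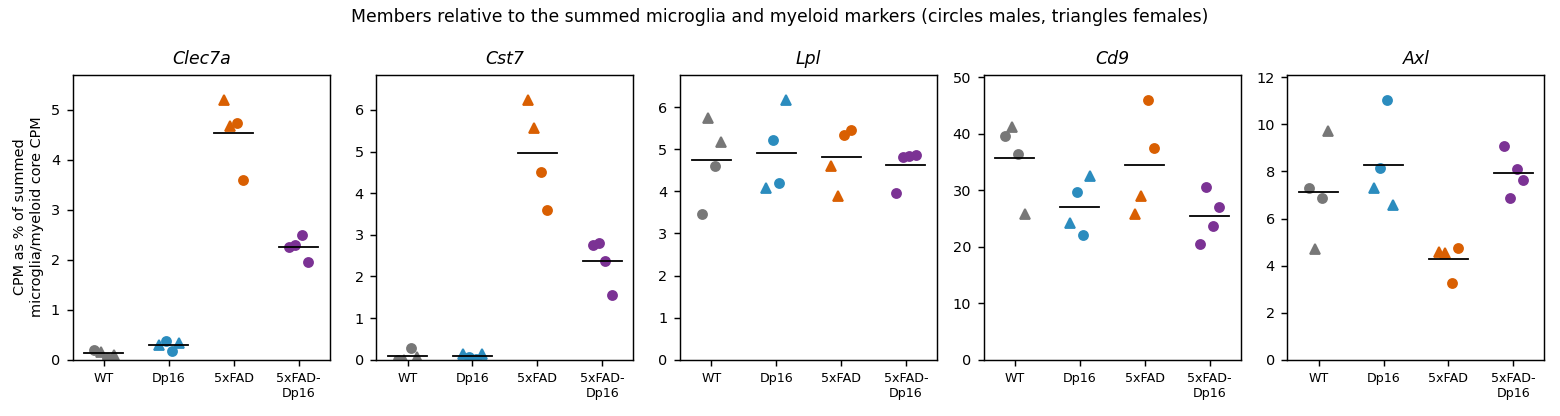
CPM of 5 members as a percent of the summed CPM of 15 microglia and myeloid core markers, by library and genotype, with males as circles, females as triangles and group means as lines. For Clec7a and Cst7 the 5xFAD libraries stand above those of 5xFAD-Dp16, and both above the libraries without 5xFAD. Lpl overlaps across all 4 groups, and Axl has its lowest mean in 5xFAD.

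The core markers moved with the members, so each member was also expressed as a percent of their summed level. Clec7a made up 0.126 ± 0.070% of it in wild-type, 0.293 ± 0.080% in Dp16, 4.54 ± 0.68% in 5xFAD and 2.24 ± 0.22% in 5xFAD-Dp16 (SD, n = 4). Cst7 made up 0.091 ± 0.14%, 0.089 ± 0.059%, 4.97 ± 1.17% and 2.37 ± 0.58%. On this scale the 4 libraries of 5xFAD stood above those of 5xFAD-Dp16 for both genes, and both groups stood above the groups without 5xFAD. The share of all genes that separate on this scale was not computed. In CPM, 5.87% of tested genes were lower in every 5xFAD-Dp16 library than in every 5xFAD library. Cst7 was tested only because of its levels with 5xFAD.

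Lpl, in contrast, was level at 4.75 ± 0.97%, 4.92 ± 0.97%, 4.82 ± 0.73% and 4.62 ± 0.44% of the core sum. Cd9 stood at 35.8 ± 6.96%, 27.1 ± 4.78%, 34.5 ± 9.05% and 25.5 ± 4.34%, with overlapping groups. Axl stood at 3.28 to 4.73% in 5xFAD, 4.72 to 9.70% in wild-type and 6.88 to 9.07% in 5xFAD-Dp16. Spp1, Gpnmb and Csf1, like Axl, had their lowest mean in 5xFAD, at 1.09 ± 0.35%, 0.43 ± 0.21% and 0.88 ± 0.27%. Itgax overlapped between 5xFAD (0.276 ± 0.194%) and 5xFAD-Dp16 (0.227 ± 0.150%), and Lgals3 overlapped between all groups. These percentages were not tested, and for Cd9, Lpl, Spp1, Axl and Csf1, which other brain cells express, they are no estimate of a level per microglial cell.

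Levels differed between the sexes within the 5xFAD group. The 2 females had 44.5 and 47.4 CPM of Clec7a against 21.0 and 32.3 in the males, 53.2 and 57.0 CPM of Cst7 against 21.0 and 30.8, and 3.83 and 4.41 CPM of Itgax against 0.618 and 0.792. The females were also higher in the summed core markers, at 915 and 954 CPM against 585 and 684 CPM. Both male libraries still stood above every wild-type and Dp16 library for these 3 genes. For Cst7 and Itgax, tested only because of their levels with 5xFAD, this separation supports nothing further.

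Whether this sex difference exceeded that of the groups without 5xFAD was tested with 1 mean per combination of genotype and sex. No gene passed edgeR's test, 0% of those tested, with 2078 at an unadjusted p below 0.05 and 13 by DESeq2. The extra female difference was 0.69 for Clec7a (SE 0.51, adjusted p = 0.523) and 1.08 for Cst7 (SE 0.99, 0.603), and Itgax was not tested because some groups held 0 reads. Axl had the smallest p of the members, with 1.06 (SE 0.35, unadjusted p = 0.00799, adjusted p = 0.408), and passed with no filter on low counts (0.0309) and without wild-type replicate 4 (0.0349), a model that called 1586 genes.

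Among males alone, Clec7a and Cst7 passed in 5xFAD against wild-type (5.51 and 5.25, adjusted p = 0.000484 and 0.0218) and in 5xFAD-Dp16 against Dp16 (3.17 and 6.02, both 0.0181). The calls of Cst7, favoured by the filter, add no support. Itgax and Lpl did not pass in 5xFAD males (adjusted p = 0.165 and 0.154), at 2 animals a group. The difference of Lpl was 0.83, against 0.79 with both sexes. That of Itgax was 6.66, against 6.55, but both wild-type males held 0 Itgax reads, so its size in males is not determined. The mean Itgax level was 0.705 CPM in the 5xFAD males and 4.12 CPM in the 5xFAD females. The same 2 calls ended when wild-type replicate 2 and 5xFAD replicate 3 were both left out (0.184 and 0.0637), with differences of 6.37 and 0.84.

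The pattern of the members' mean over the 16 libraries was compared with that of each other gene by the root mean square difference of values scaled to mean 0 and SD 1. The 5 most alike genes were Gfap (0.505), the lysosomal protease gene Ctss (0.507), the macrophage pore-forming gene Mpeg1 (0.516), Ptprc (0.532) and Fcer1g (0.539). Set against the mean of the other 9, the members had differences of 0.568 for Itgax, 0.584 for Clec7a, 0.641 for Cst7 and 0.686 for Lpl, and of 0.906 to 1.11 for the remaining 6. Mpeg1 stood at 33.2 ± 3.52 CPM in wild-type, 36.7 ± 3.66 in Dp16, 102 ± 48.0 in 5xFAD and 63.8 ± 10.4 in 5xFAD-Dp16 (SD, n = 4). Gfap, an astrocyte gene, stood at 162 ± 7.81, 198 ± 44.9, 596 ± 260.0 and 366 ± 80.8 CPM, and both genes were higher in the 5xFAD females than in the males.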

How the data were processed

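The study sequenced polyA-selected cortical RNA with a strand-specific kit and paired reads, per the labels' protocols. The authors deposited raw read counts for 55385 genes, with no normalization, and RPKM values, which the authors scaled by gene length and library total. Per the submitters' processing notes, HISAT2 2.1.0, SAMtools 1.5, HTSeq 0.6.1, FastQC 0.11.5, bcl2fastq and build GRCm38 were used, with no role stated for each and no strand setting. The RPKM values gave gene lengths and levels per length, and 100% of their non-zero values matched the counts within 0.1%.

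Counts were fitted with edgeR 4.0.16 in R 4.3.3. The 17019 genes that passed filterByExpr entered 1 robust quasi-likelihood model over the 16 libraries, with TMM factors, a mean per genotype and an additive sex term. Each of 7 comparisons was tested two-sided at 0.05, adjusted by Benjamini-Hochberg across the whole set of tested genes, and adjusted p-values in the text come from this test unless another tool is named. Differences are log2 fold changes, with the standard error taken as their size over the square root of F. Alternatives were DESeq2 1.42.0, its size factors, no filter on low counts, removal of the length trend, no sex term, males only, a replicate block and each library left out. Leaving out both libraries of lowest correlation was added after seeing the data. On counts simulated for 5xFAD against wild-type with 16675 genes, 54% of genes changed by a log2 of 1 were recovered and 86% of those changed by 2. In that comparison 7 unchanged genes were called. The changed genes all had a mean above 1 CPM and no length trend was simulated, so these rates do not cover rarer genes or such a trend.

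The labels give 1 animal per library and no other source of replicates. Gene coordinates are from Gencode M21 on GRCm38, matched by gene identifier. The members and gene lists were chosen with earlier results of these data known, and lists are described by counts and medians, with no test. The text names, by rule, the members, up to 4 genes of each list with the smallest p in the mean 5xFAD effect, any partner or regulator, Thy1, and the 5 genes whose pattern is most like that of the members.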

Additional observations from a re-analysis of the deposited data

Results flagged for a closer look

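Itgax had reads in single libraries of groups that otherwise held none. In wild-type replicate 4 its level was 0.0526 CPM, from 1 read, and in the other 3 wild-type libraries it was 0. In Dp16 replicate 3 it was 0.203 CPM, from 4 reads, and in the other 3 Dp16 libraries 0. Each passed Dixon's 95% critical value for 4 samples, among 44 groups examined, of which chance marks about 1 in 20. With the other 3 libraries at 0 any read passes it, so this does not show that either library stood apart.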

How the results depend on the processing

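Of 498 values of members under other settings, 444 kept their direction and their side of the threshold, 21 passed it newly, 7 no longer passed and 26 turned direction. Clec7a passed in 5xFAD against wild-type, in 5xFAD-Dp16 against Dp16 and in the mean 5xFAD effect under all settings run. Why the following values moved was not tested beyond what each setting changes.

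In 5xFAD against wild-type 30 genes passed. DESeq2 called 234 (125 higher, 109 lower), no filter on low counts 235 (100 higher, 135 lower), males only 5 and the model without both libraries of lowest correlation 18. The last 2 settings each called 2 members in place of 4. In 5xFAD-Dp16 against Dp16, 3 genes passed, against 25 by DESeq2, 45 with no filter and 5 without both libraries. For the mean effect, 32 genes passed, against 154 by DESeq2, 105 with no filter and 10 among males. In Dp16 against wild-type 3 passed, against 35 by DESeq2, 43 with no filter (1 member), 5 with the length trend removed, 0 among males and 1 without both libraries.

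In 5xFAD-Dp16 against 5xFAD 0 genes passed, against 740 by DESeq2 (3 members), 2215 with no filter (3 members), 3 with the length trend removed, 16 with no sex term (2 members) and 3956 among males (3 members). For the interaction 0 passed, against 21 by DESeq2 and 346 with no filter, with 1 member in each. For the sex difference 0 passed, against 13 by DESeq2 and 398 with no filter (1 member). Removal of the length trend moved the median of all genes to -0.11, -0.12 and -0.12 in these 3 comparisons.

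The values that turned were small in most cases. Among males, Spp1 was -0.13 and Axl -0.43 in 5xFAD against wild-type, Cd9 0.071, Axl -0.23 and Lgals3 -0.096 in 5xFAD-Dp16 against Dp16, and Spp1 -0.16 and Axl -0.33 in the mean effect. Among males the interaction was 0.77 for Cst7, -0.30 for Gpnmb, 0.21 for Axl and -0.17 for Csf1. With the length trend removed, 5xFAD-Dp16 against Dp16 gave Cd9 0.14, Lpl -0.011 and Axl -0.11, Itgax was -0.20 in 5xFAD-Dp16 against 5xFAD, and the interaction of Csf1 was -0.19. With no sex term, Cd9 was 0.017 and Itgax -0.97 in the same comparisons. Without both libraries of lowest correlation, Lgals3 was -0.33 and Itgax -0.23. Spp1 in the mean effect was -0.0023 with DESeq2's size factors and -0.0012 by DESeq2, which gave -0.090 for Itgax in 5xFAD-Dp16 against 5xFAD.

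Leaving out each library in turn gave 16 to 32 genes and 2 to 4 members in 5xFAD against wild-type, with Spp1 at -0.11 to 0.35 and Axl at -0.12 to 0.25. In 5xFAD-Dp16 against Dp16 it gave 2 to 5 genes and 1 to 3 members, with Cd9 at -0.13 to 0.066, Spp1 at -0.65 to 0.023, Axl at -0.076 to 0.39 and Lgals3 at -0.38 to 0.32. For the mean effect it gave 13 to 49 genes and 3 members, with Spp1 at -0.22 to 0.11 and Axl at -0.038 to 0.21. In Dp16 against wild-type it gave 0 to 3 genes, with Cst7 at -0.59 to 1.92 and Itgax at -1.94 to 3.02.

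In 5xFAD-Dp16 against 5xFAD it gave 0 to 42 genes and 0 to 1 members, with Itgax at -0.61 to 0.77, Spp1 at -0.35 to 0.33 and Lgals3 at -0.77 to 0.067. For the interaction it gave 0 to 1 genes and members, with Itgax at -2.98 to 2.71, Axl at -0.27 to 0.36 and Csf1 at -0.43 to 0.47. For the sex difference it gave 0 to 1586 genes, the most without wild-type replicate 4, and 0 to 1 members, with Clec7a at -0.11 to 1.07 and Cst7 at -2.19 to 3.49.

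Replicate numbers did not pair the samples. Of 24 pairs with the same number, 8 had a correlation of deviations over 0.1, between -0.598 and 0.569, and 1 of 16 libraries correlated best with its own number. With the replicate block, 17 genes passed in the mean effect, 0 in Dp16 against wild-type, and 1 member in 5xFAD-Dp16 against Dp16, where Cst7 had an adjusted p of 0.0564. Itgax in 5xFAD against wild-type had 0.112. Spp1 was -0.016 in the mean effect, Itgax -0.22 in 5xFAD-Dp16 against 5xFAD, and the interaction of Axl 0.0064.

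The all-male double mutants, 4 animals a group and few reads limit the comparisons of Dp16, above all for Itgax, Cst7 and Lgals3 in groups without 5xFAD.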
